A study of Mus musculus with 12 samples.

Results

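Dppa2, Dppa3, Dppa4 and Dppa5a are 4 of the 54446 genes listed in an RNA-seq time course of mouse embryonic stem (ES) cells, and they were taken by their gene symbols. All 4 passed the filter of a mean of at least 1 TPM (a relative share of transcripts, corrected for transcript length) that left 15727 genes to be tested. The 12 libraries came from 2 lines, KH (wild type for the de novo DNA methyltransferases) and DNMT3ABKO (Dnmt3a and Dnmt3b knocked out), with 2 libraries per group. Each line was collected without treatment (0 h) and after 72 and 144 h with INK128. INK128 blocks the kinase mTOR (mTORi), which slows ES cells into a reversible pause like that of the blastocyst in diapause. Each genotype was 1 line, and no untreated culture of 72 or 144 h is among these libraries, so genotype and line, and treatment and time in culture, cannot be told apart. The labels place E14 before both line names, whereas the study's methods describe wild-type KH2 and Dnmt3a/b knockout cells grown on feeders, a layer of inactivated fibroblasts. The study states in general that its experiments were repeated in independent runs and that the time points of a biological replicate were handled together. Neither it nor the labels say how these 12 libraries map onto those runs, so p-values measure the spread between these libraries.

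The Dppa genes (developmental pluripotency associated) were named together for their expression in pluripotent cells, but they encode different kinds of protein. Dppa2 and Dppa4 are related proteins with a SAP DNA-binding domain that form a heterodimer, bind CpG-rich promoters of developmental genes and lie upstream of Dux, the transcription factor that switches on the 2-cell-like programme. Dppa3, also called Stella or PGC7, binds Uhrf1, the factor that brings the maintenance methyltransferase Dnmt1 to replicated DNA, and shields the maternal genome from demethylation in the zygote. Dppa5a, also called Esg1, is a small RNA-binding protein with a KH domain.

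In the coordinates of the deposited files (mm10), Dppa4 (ENSMUSG00000058550.15, chr16:48283733-48294237) and Dppa2 (ENSMUSG00000072419.5, chr16:48303908-48319723) are neighbours on the plus strand, 9671 bases apart. Dppa3 (ENSMUSG00000046323.8, chr6:122626410-122630272) lies on the plus strand, 16323 bases from Gdf3 and 77217 bases from Nanog. Dppa5a (ENSMUSG00000060461.5, chr9:78367052-78368177) lies on the minus strand, 7932 bases from Ooep. In GENCODE M21 (mm10) the longest coding sequences have 301 codons for Dppa2, 296 for Dppa4, 150 for Dppa3 and 118 for Dppa5a, so Dppa2 and Dppa4 are alike in length and Dppa5a is the shortest.

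Copies of these genes bear on how far reads can be assigned to them. Dppa5b and Dppa5c are unprocessed pseudogenes of Dppa5a on the same chromosome, and Dppa3-ps is a processed pseudogene of Dppa3 on chromosome X. The coding bases of the first coding exon of each member are shown beside the aligned bases of its copies, 5′ to 3′, with capitals at the positions where a copy differs.
Dppa5a (chr9:78367985-78368099, minus strand): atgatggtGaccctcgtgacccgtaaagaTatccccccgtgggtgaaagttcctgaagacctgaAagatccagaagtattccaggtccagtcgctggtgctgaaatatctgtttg
Dppa5b (chr9:78245550-78245664, plus strand): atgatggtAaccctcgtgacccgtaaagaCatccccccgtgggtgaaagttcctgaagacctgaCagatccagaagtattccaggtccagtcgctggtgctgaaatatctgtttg
Dppa5c (chr9:78271998-78272112, plus strand): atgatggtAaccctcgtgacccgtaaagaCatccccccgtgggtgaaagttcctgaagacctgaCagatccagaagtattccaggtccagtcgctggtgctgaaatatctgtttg
Dppa3 (chr6:122626523-122626610, plus strand): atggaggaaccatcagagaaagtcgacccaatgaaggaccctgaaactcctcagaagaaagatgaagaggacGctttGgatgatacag
Dppa3-ps (chrX:37626012-37626097, minus strand): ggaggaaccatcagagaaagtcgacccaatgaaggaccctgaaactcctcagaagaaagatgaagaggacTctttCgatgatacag
Counted from 1 at the A of the member's start codon, the differences were G9A, T30C and A65C in both Dppa5b and Dppa5c. In Dppa3-ps they were G73T and G78C. The annotated Dppa3-ps transcript begins after the first 2 bases, and the genome beyond it was not read. Over the whole coding sequence, Dppa5b and Dppa5c were each identical to Dppa5a at 94.6% of 333 aligned bases, and identical to each other at all of their 348 bases. Dppa3-ps was identical to Dppa3 at 98.2% of 448 aligned bases. Of all windows of 50 bases in the main transcript, 36.7% for Dppa2, 35.9% for Dppa4, 38.6% for Dppa5a and 17.7% for Dppa3 also occurred in a transcript of another annotated gene.

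The copies were listed at low levels next to most members. Dppa5b was listed at 7.38 to 14.3 TPM and Dppa5c at 7.54 to 14.8 TPM over the 12 libraries. Each was at most 0.663% of the Dppa5a level. Together with other genes that share windows with Dppa5a, 8 genes summed to 1.01 to 1.94% of its level. That sum leaves out Pigp, which also shares windows and was listed at 8.10 to 17.7 TPM. Dppa3-ps was listed at 0.116 to 3.52 TPM, or 0.415 to 3.53% of the Dppa3 level. For Dppa4, the 2 genes that share windows summed to 7.71 to 11.0% of its level. Dppa2 was the exception, because 6 of the 7 genes that share windows with it (the other one was not used here), led by the pseudogene Gm9788 at 15.6 to 35.7 TPM, summed to 21.9 to 37.0% of its level. How the authors' counting divided reads between these copies was not tested, and the values of Dppa2 are the least certain of the 4 in this respect. Dppa1, which is no member, was listed at 0 in every library.

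The libraries were checked against their labels and against other cell types. Dnmt3a was listed at 54.7 to 144 TPM in the KH libraries and at 7.35 to 21.9 TPM in the DNMT3ABKO libraries, and Dnmt3b at 142 to 258 TPM and 12.7 to 27.5 TPM, so the targeted genes were low but not at 0 in the knockout line. The ES cell marker Pou5f1 was listed at 786 to 1132 TPM in all libraries. Markers of fibroblasts were also present, and 16 of the 17 tested were called in KH cells at 144 h against 0 h, all lower. Their summed level was 2971 to 3315 TPM in KH and 3267 to 3564 TPM in DNMT3ABKO cells at 0 h, 1119 to 1406 TPM at 72 h in both lines, and 627 to 729 TPM in KH and 499 to 514 TPM in DNMT3ABKO cells at 144 h. The 10 macrophage markers, all called lower in KH cells at 144 h, summed to 258 to 331 TPM at 0 h, 156 to 237 TPM at 72 h and 38.5 to 56.6 TPM at 144 h. No fibroblast or macrophage marker was at 0 in both libraries of any group. TPM does not keep the read depth, which is unknown here, and in bulk RNA a smaller number of cells of a type and less RNA per cell cannot be told apart. The 2 libraries of DNMT3ABKO at 0 h agreed least, with r = 0.985 across tested genes against 0.994 to 0.996 in the other 5 groups.

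Without treatment the members spanned a wide range of levels. Dppa5a was the most abundant, at 1911 ± 67.3 TPM (SD, n = 2) in KH and 1984 ± 84.6 TPM in DNMT3ABKO cells, which ranked it 36th and 31st among the 15727 tested genes. Dppa3 stood at 110.4 ± 4.06 TPM and 97.8 ± 4.35 TPM. Dppa4 stood at 108 ± 1.11 TPM and 109 ± 4.86 TPM, and Dppa2 at 70.4 ± 6.44 TPM and 84.5 ± 27.4 TPM. None of the 4 was called different between the untreated lines by limma, and 0 had an unadjusted p under 0.05. Of all tested genes 9.06% were called, so with only 4 members 0 calls is near that share. The 95% confidence intervals of the line difference (DNMT3ABKO minus KH) on the log2(TPM + 1) scale were -0.13 to 0.13 for Dppa4 and -0.08 to 0.19 for Dppa5a. They were wider for Dppa3, at -0.40 to 0.06, and for Dppa2, at -0.15 to 0.60. For Dppa2 the knockout libraries stood far apart, at 65.1 and 104 TPM. Without replicate 1 of that group Dppa2 was called higher in the knockout line (log2 difference 0.56, limma adjusted p = 0.00316), and without replicate 2 its difference was -0.11 (adjusted p = 0.359).

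**Figure D1:**
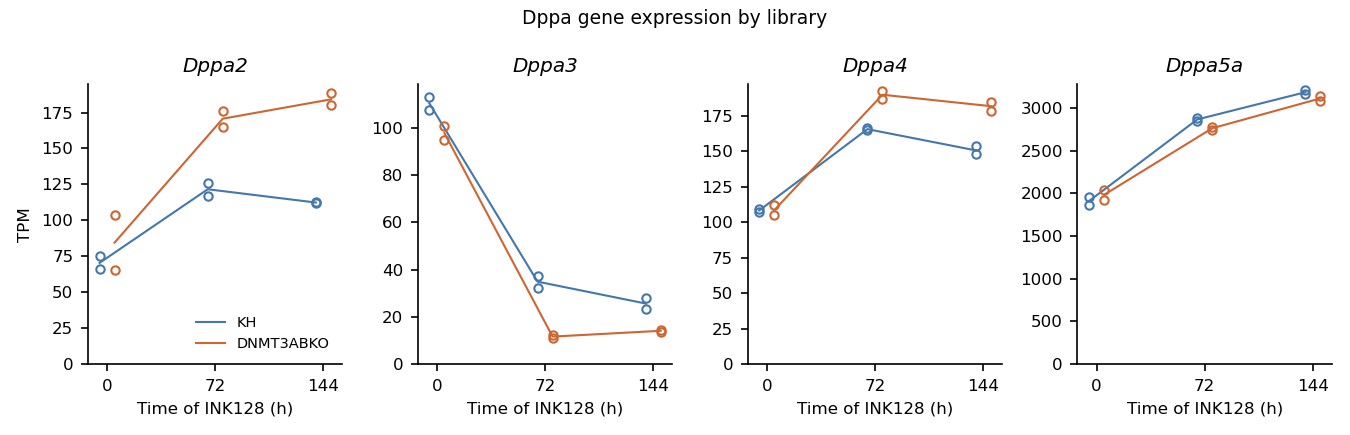
TPM of each member (vertical axes, from 0) against hours of INK128 in KH and DNMT3ABKO cells, with circles for single libraries and lines through the means of 2. Dppa3 falls in both lines and further in DNMT3ABKO, to 10.9 and 12.4 TPM at 72 h, while the other 3 members lie above their 0 h levels at both later times.

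Under mTORi the members moved in different directions. In KH cells after 72 h, Dppa2, Dppa4 and Dppa5a rose by 1.5- to 1.73-fold (ratio of mean TPM) and Dppa3 fell to 31.6% of its untreated level. All 4 were called, and so were 47.8% of all tested genes, so being called in this contrast is common. After 144 h all 4 were called again, beside 51.3% of tested genes. In DNMT3ABKO cells all 4 were called in the same directions at 72 h, where 56% of genes were called, and at 144 h, where 57.6% were.

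Dppa3 changed most. In KH cells it was measured at 108 and 113 TPM at 0 h, 32.4 and 37.4 TPM at 72 h, and 23.5 and 27.8 TPM at 144 h. In DNMT3ABKO cells the values were 94.8 and 101 TPM at 0 h, 12.4 and 10.9 TPM at 72 h, and 13.6 and 14.6 TPM at 144 h. No group of either line overlapped another. All treated libraries lay below all untreated ones, and all treated knockout libraries lay below all treated KH libraries.
At 72 h the log2 difference from 0 h was -1.64 ± 0.10 (SE) in KH cells (limma adjusted p = 2.66e-06) and -2.97 ± 0.10 in DNMT3ABKO cells (adjusted p = 6.16e-08), where 11.9% of the untreated level was left. At 144 h it was -2.07 ± 0.10 in KH (adjusted p = 2.32e-07) and -2.71 ± 0.10 in DNMT3ABKO cells (adjusted p = 1.97e-08), with 23.2% and 14.4% of the untreated level left. Ordered from the lowest log2 difference upwards, Dppa3 was at position 15 of 15727 genes in DNMT3ABKO cells at 72 h and at position 91 in KH cells. Fibroblast and macrophage markers, whose summed levels are given above, also fell over these times, and their part in the fall of Dppa3 was not tested.

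The later step was examined next. From 72 to 144 h Dppa3 fell by a further 0.43 ± 0.10 in KH cells (adjusted p = 0.0146), and it was the only member called there, beside 22.9% of tested genes. This call was lost without replicate 2 at 72 h (adjusted p = 0.125) and without replicate 1 at 144 h (adjusted p = 0.127). In DNMT3ABKO cells the difference over the same step was 0.26 ± 0.10 and was not called (adjusted p = 0.0955). None of the members was called by limma in that step in DNMT3ABKO cells, where 27.3% of genes were, and 2 of the 4 had an unadjusted p under 0.05.

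Dppa3 was also the only member called for a difference between the lines in the response itself. The 72 h response was lower in DNMT3ABKO than in KH cells by a log2 difference of -1.33 ± 0.15 (limma interaction, adjusted p = 0.000985), a contrast in which 5.23% of genes were called. The 144 h response differed by -0.64 ± 0.15 (adjusted p = 0.0241), where 8.59% of genes were called. The 72 h difference was called with any single library left out. The 144 h difference was not called in 5 of 8 such fits, namely without either KH library at 0 h (adjusted p = 0.0819 and 0.0527), without KH replicate 2 at 144 h (0.091), and without either DNMT3ABKO library at 144 h (0.0933 and 0.059). At equal times, the Dppa3 level of DNMT3ABKO cells was 33.3% of that of KH cells at 72 h (log2 difference -1.51 ± 0.10, adjusted p = 5.33e-06) and 55.0% at 144 h (-0.82 ± 0.10, adjusted p = 0.00033). At 72 h 9 of the 10 macrophage markers and 2 of the 17 fibroblast markers tested were also lower in DNMT3ABKO cells, beside 10% of all tested genes. At 144 h no macrophage marker was called lower and 4 were called higher there, led by Lyz2 (1.01, adjusted p = 8.61e-06), the direction opposite to Dppa3, while 1 fibroblast marker was lower and 2 were higher. The part of these cells in the difference was not tested. Over the 3 times together, the average line difference was -0.83 ± 0.06 (adjusted p = 3.4e-06). The exact two-sided permutation test of line labels within time points gave p = 0.00926, the smallest that its 216 assignments allow.

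Dppa2 and Dppa4, the partners of the heterodimer, both rose. Dppa2 was measured at 65.8 and 74.9 TPM at 0 h, 117 and 126 TPM at 72 h, and 112 and 113 TPM at 144 h in KH cells. The DNMT3ABKO values were 65.1 and 104 TPM, 176 and 165 TPM, and 180.0 and 188 TPM. The treated libraries lay above the untreated ones in each line, and the treated knockout libraries lay above all KH libraries. The log2 rise was 0.78 ± 0.17 at 72 h (adjusted p = 0.0037) and 0.67 ± 0.17 at 144 h (adjusted p = 0.00733) in KH cells, and 1.04 ± 0.17 (adjusted p = 0.000503) and 1.15 ± 0.17 (adjusted p = 0.000221) in DNMT3ABKO cells. The call in KH cells at 144 h was lost without replicate 1 of KH at 0 h (adjusted p = 0.0545).

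Dppa4 was measured at 108 and 109 TPM at 0 h, 166 and 165 TPM at 72 h, and 148 and 154 TPM at 144 h in KH cells. In DNMT3ABKO cells the values were 112 and 105 TPM, 193 and 187 TPM, and 179 and 185 TPM. Its replicates were close, and its highest group was DNMT3ABKO at 72 h. The log2 rise was 0.61 ± 0.06 (adjusted p = 3.09e-05) and 0.47 ± 0.06 (adjusted p = 9.7e-05) in KH cells at 72 and 144 h, and 0.80 ± 0.06 (adjusted p = 2.84e-06) and 0.74 ± 0.06 (adjusted p = 2.82e-06) in DNMT3ABKO cells. Neither partner was called between 72 and 144 h in either line.

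Both partners were higher in the knockout line once treated, but the single time points were less firm than the average. At 144 h Dppa2 was 1.64-fold higher in DNMT3ABKO than in KH cells (log2 difference 0.71 ± 0.17, adjusted p = 0.0117) and Dppa4 was 1.21-fold higher (0.27 ± 0.06, adjusted p = 0.00719). With Dppa3, 3 of the 4 members were called at 144 h, beside 26.5% of genes. Leaving out any of the 4 libraries of this comparison ended the call for Dppa2, with adjusted p of 0.0616 and 0.0584 without KH replicate 1 or 2 and of 0.051 and 0.069 without DNMT3ABKO replicate 1 or 2. The call for Dppa4 ended without KH replicate 1 (adjusted p = 0.0666) and without DNMT3ABKO replicate 2 (adjusted p = 0.0621). At 72 h Dppa4 was called (0.20 ± 0.06, adjusted p = 0.0396) with Dppa3, beside 19.3% of genes, and Dppa2 was not (0.49 ± 0.17, adjusted p = 0.0711). That call for Dppa4 ended when replicate number entered as a block, separately per line (adjusted p = 0.0891) or across both lines (0.0522). It also ended without any of its 4 libraries, with adjusted p of 0.161 and 0.179 without KH replicate 1 or 2 and of 0.207 and 0.123 without DNMT3ABKO replicate 1 or 2. Averaged over the 3 times, the line difference was 0.47 ± 0.10 for Dppa2 (adjusted p = 0.00389) and 0.16 ± 0.03 for Dppa4 (adjusted p = 0.00498), with p = 0.0278 for each by the exact two-sided permutation test. Of the 4 members, 3 were called on this average, beside 37.5% of tested genes.
Neither partner was called for a line difference in the response itself. The interaction was 0.26 (95% confidence interval -0.27 to 0.79) at 72 h and 0.48 (-0.05 to 1.01) at 144 h for Dppa2, and 0.19 (0.01 to 0.38) and 0.27 (0.09 to 0.45) for Dppa4. The intervals are not adjusted over genes, and the adjusted p for Dppa4 was 0.243 at 72 h and 0.0749 at 144 h. The Dppa2 values rest on the untreated knockout libraries. Without replicate 2 of DNMT3ABKO at 0 h the interaction was 0.59 at 72 h (adjusted p = 0.00717) and 0.81 at 144 h (adjusted p = 0.000963), and without replicate 1 it was -0.07 (adjusted p = 0.755) and 0.15 (adjusted p = 0.424).

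**Figure D2:**
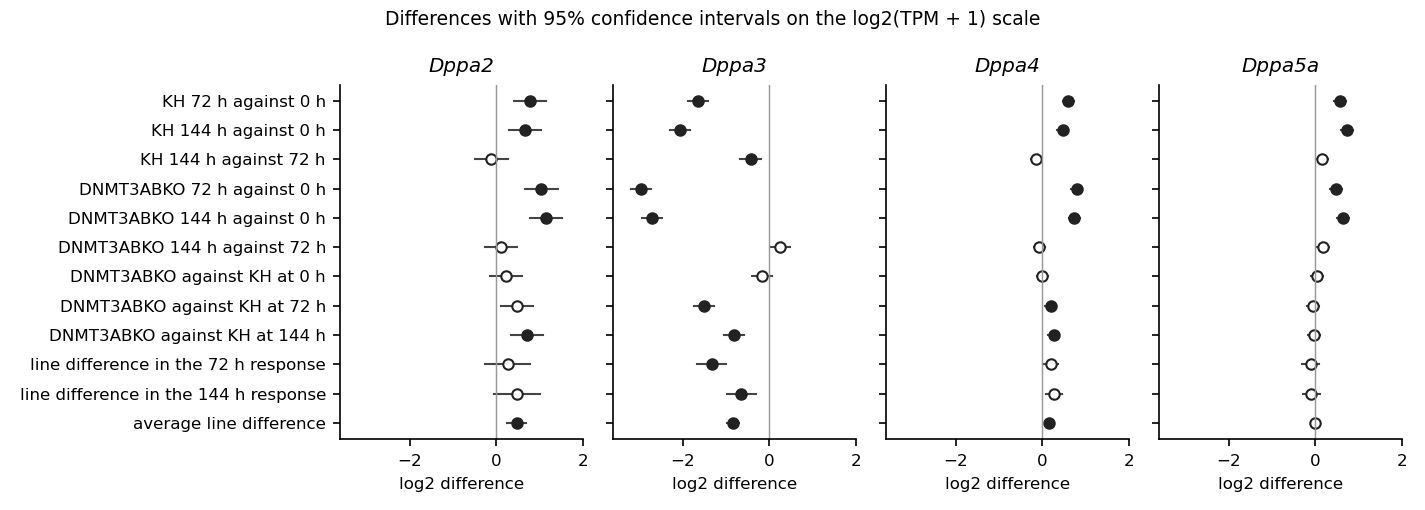
Log2 differences of the 4 members on the log2(TPM + 1) scale (horizontal axes) in the 12 contrasts, as points with 95% confidence intervals from limma. Filled points passed an adjusted p of 0.05 and open points did not, and Dppa3 is the member with filled points for the line difference in both responses, at -1.33 and -0.64.

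The ratio of Dppa4 to Dppa2 within a library is free of the library's other RNA, but not of how reads were divided with copies. The listed genes that share windows with Dppa2 summed to 21.9 to 37.0% of its level, and those of Dppa4 to 7.71 to 11.0%. For KH cells it was 1.63 and 1.46 before treatment, 1.42 and 1.31 after 72 h, and 1.32 and 1.36 after 144 h. The DNMT3ABKO ratio was 1.72 and 1.01 before treatment, 1.09 and 1.13 after 72 h, and 0.994 and 0.983 after 144 h. The treated libraries of the lines did not overlap, and the untreated knockout libraries lay on either side of both KH libraries. The average line difference in the log2 ratio, taken after adding 1 TPM to both genes, was -0.32 (exact two-sided permutation test, p = 0.037), with the lower ratio in DNMT3ABKO cells. This p ranged from 0.00926 to 0.13 with single libraries left out. It passed 0.05 in 5 of these 12 tests, namely without KH replicate 1 or 2 at 0 h (p = 0.13 and 0.0741 by the same exact test), KH replicate 2 at 144 h (0.0556), DNMT3ABKO replicate 2 at 0 h (0.0926) and DNMT3ABKO replicate 1 at 72 h (0.0556).

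**Figure D3:**
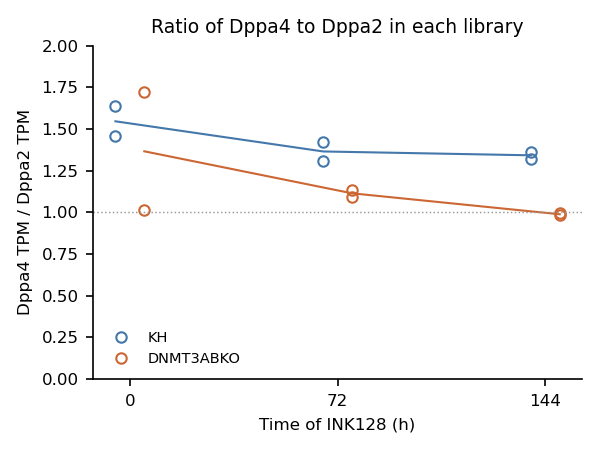
Dppa4 TPM divided by Dppa2 TPM in each library (vertical axis, from 0) against hours of INK128, with circles for libraries, lines through the means of 2 and a dotted line at a ratio of 1. The KH libraries at 144 h sit at 1.32 and 1.36, and the DNMT3ABKO libraries at 0.994 and 0.983.

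Dppa5a rose in both lines. It was measured at 1864 and 1959 TPM at 0 h, 2879 and 2855 TPM at 72 h, and 3209 and 3163 TPM at 144 h in KH cells, and at 2044 and 1924 TPM, 2748 and 2780.5 TPM, and 3144 and 3084 TPM in DNMT3ABKO cells. The treated libraries lay above all untreated ones and the 144 h libraries above all 72 h libraries. The log2 rise was 0.59 ± 0.06 (adjusted p = 5.95e-05) and 0.74 ± 0.06 (adjusted p = 7.85e-06) in KH cells at 72 and 144 h, and 0.48 ± 0.06 (adjusted p = 0.000125) and 0.65 ± 0.06 (adjusted p = 1.15e-05) in DNMT3ABKO cells. The step from 72 to 144 h was 0.15 ± 0.06 in KH (adjusted p = 0.109) and 0.17 ± 0.06 in DNMT3ABKO cells (adjusted p = 0.0657). The average line difference was -0.01, with a 95% confidence interval of -0.09 to 0.07, and the exact two-sided permutation test gave p = 0.667. The intervals of the interaction were -0.30 to 0.09 at 72 h and -0.28 to 0.11 at 144 h. At 144 h Dppa5a ranked 15th among tested genes by level in KH cells and 16th in DNMT3ABKO cells.

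Ordering the 6 groups by mean level gave a different order for each gene. Dppa2 was highest in DNMT3ABKO at 144 h, followed by DNMT3ABKO at 72 h, KH at 72 h, KH at 144 h, DNMT3ABKO at 0 h and KH at 0 h. Dppa4 had the same order except that 72 h came before 144 h in DNMT3ABKO cells, and for Dppa5a the order was KH at 144 h, DNMT3ABKO at 144 h, KH at 72 h, DNMT3ABKO at 72 h, DNMT3ABKO at 0 h and KH at 0 h. In all 3 orders the values of neighbouring groups overlapped only between the untreated lines. For Dppa3 no neighbours overlapped, and the order ran from KH at 0 h through DNMT3ABKO at 0 h, KH at 72 h, KH at 144 h and DNMT3ABKO at 144 h to DNMT3ABKO at 72 h. With 2 libraries per group, separation of neighbours is a weak criterion, and several of these steps were not called (the values are given above).

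The rises depended on what they were measured against. Fibroblast markers fell with treatment as given above. The 8 ES cell markers summed to 2449 to 2627 TPM at 0 h and 3286 to 3418 TPM at 72 h in KH cells. In DNMT3ABKO cells the sums were 2339 to 2465 TPM and 2950 to 2967 TPM. Pou5f1, the core pluripotency factor, rose from 843 and 863 TPM to 1132 and 1106 TPM at 72 h in KH cells. Not every marker rose, since Utf1 was not called there (0.18, limma adjusted p = 0.0755). In DNMT3ABKO cells Nanog fell at 72 h (-0.49, adjusted p = 0.00422) and Utf1 at 144 h (-0.30, adjusted p = 0.00674). When each library was rescaled to the mean log2 level of Pou5f1, Sox2 and Sall4, the median log2 difference of all tested genes moved from 0.08 to -0.28 in KH at 72 h, from 0.05 to -0.33 in KH at 144 h, from 0.12 to -0.21 in DNMT3ABKO at 72 h and from 0.05 to -0.37 in DNMT3ABKO at 144 h. On this scale the rise of Dppa5a was 0.16 (adjusted p = 0.0824) and 0.30 (adjusted p = 0.00561) in KH cells at 72 and 144 h, and 0.11 (adjusted p = 0.232) and 0.16 (adjusted p = 0.0733) in DNMT3ABKO cells. Dppa4 remained called at 72 h in KH (0.19, adjusted p = 0.044) and at both times in DNMT3ABKO cells (0.43 and 0.26), but not at 144 h in KH (0.04, adjusted p = 0.671). Dppa2 was 0.37 (adjusted p = 0.041) and 0.24 (adjusted p = 0.154) in KH cells, while the DNMT3ABKO values of 0.68 and 0.67 were both called. Dppa3 fell further, by 2.05 and 2.50 in KH and by 3.34 and 3.19 in DNMT3ABKO cells. This scale takes these 3 genes as fixed per ES cell, which was not tested. All 4 directions of change from 0 h were the same on both scales, also after scaling by the median ratio over genes. All 3 scalings are relative, so their agreement does not show a change in RNA per cell. With spike-in normalisation, the paper reported a globally repressed transcriptome under mTORi in wild-type cells. It also reported decreased global transcription in the Dnmt3a/b knockout cells. Whether the members rise per cell was not tested.

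**Figure D4:**
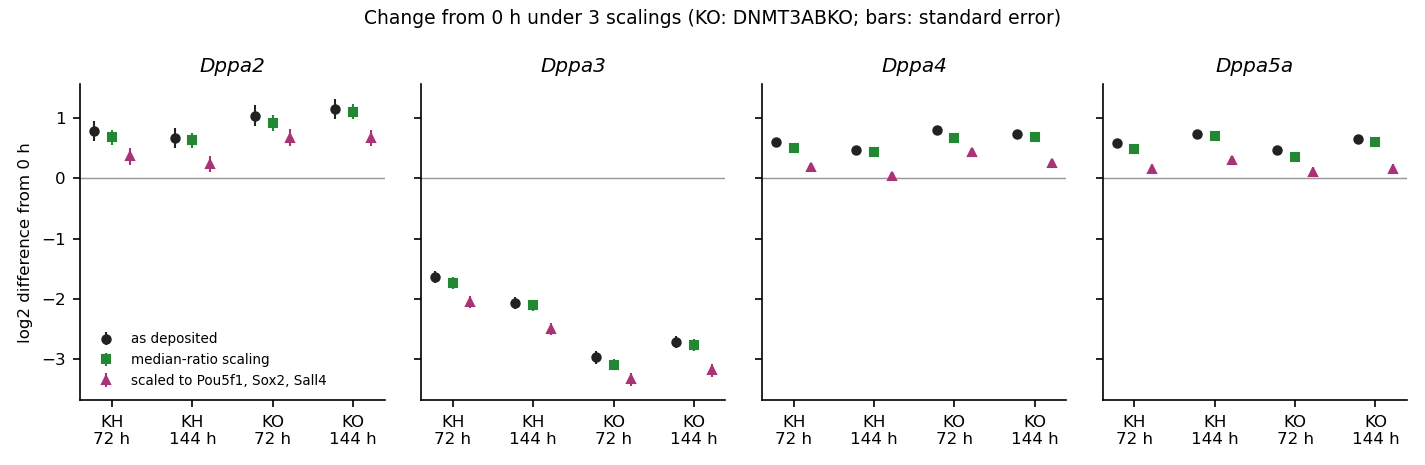
Log2 differences from 0 h on the log2(TPM + 1) scale (vertical axis) for the 4 members in KH and DNMT3ABKO (KO) cells under 3 scalings, with bars for the standard error. Scaling to Pou5f1, Sox2 and Sall4 lowers every value, so that Dppa5a in DNMT3ABKO at 72 h moves from 0.48 to 0.11 and Dppa3 from -2.97 to -3.34.

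The genes known to act with each member were followed next, starting with the 2-cell-like genes downstream of Dppa2 and Dppa4. The list held 16 genes, all tested, and their summed level was 2.94 to 3.76 TPM in KH cells at 0 h, 1.32 to 1.39 TPM at 72 h and 11.6 to 13.7 TPM at 144 h. The sum in DNMT3ABKO cells was 87.6 to 100.3 TPM, 232 to 234 TPM and 1073 to 1130 TPM. At 72 h in KH cells 0 of the 16 rose by limma, beside 28.3% of all tested genes. Of the 16, 3 fell, among them Zscan4f (-0.53, adjusted p = 0.00564), and 4 had an unadjusted p under 0.05 in either direction. The whole list summed to 1.32 to 1.39 TPM there, near the floor of the log2(TPM + 1) scale, which understates fold changes of low genes. Whether these genes followed Dppa2 and Dppa4 at that time can therefore not be read from the count. In KH cells after 144 h 9 of 16 rose, beside 27.4% of genes, and the median log2 difference was 0.39 against 0.05 over all tested genes. Apart from Tmem92, those 9 belonged to the Zscan4 and Usp17l families, whose near-identical copies can share reads. They are therefore not 9 independent rises. All 16 rose in DNMT3ABKO cells at 72 h, beside 34.3% of genes, and at 144 h, beside 31.4%, with medians of 1.09 and 3.24 against 0.12 and 0.05 over all genes. All 16 were also higher in DNMT3ABKO than in KH cells at 0 h (4.92% of genes were), at 72 h (9.26%) and at 144 h (11%). Given the sums above, these genes passed the filter of a mean of 1 TPM largely through the DNMT3ABKO libraries. The counts for the line differences, and for the rises in that line, were therefore partly set by the filter. They are a description and no independent result.
Duxf3, the Dux gene of this list, was listed at 0 and 0.0132 TPM in KH at 0 h and at 0.177 and 0.0834 TPM at 144 h. These values are near the floor, and Duxf3 was not called in KH cells at 72 h (0.05, limma adjusted p = 0.757) or 144 h (0.17, adjusted p = 0.243). In the knockout line it was listed at 0.612 and 0.460 TPM at 0 h, 3.38 and 3.88 TPM at 72 h, and 8.55 and 9.0 TPM at 144 h. Zscan4f, a zinc-finger gene of the 2-cell stage, was listed at 2.64 and 2.37 TPM in KH and at 222 and 232 TPM in DNMT3ABKO cells at 144 h. Members of the Zscan4 and Usp17l families are near-identical copies, so the division of reads among them is uncertain.

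Of 12 other regulators of Dux, mostly repressors, 4 were called in KH cells at 72 h and 7 at 144 h, and 6 in DNMT3ABKO cells at each time. These counts are near or below the shares of 47.8%, 51.3%, 56% and 57.6% over all tested genes. Rif1 rose in all 4 contrasts, by 0.44 to 0.83 on the log2 scale. Ehmt2, a histone H3 lysine methyltransferase, fell at 144 h in KH (-0.45, adjusted p = 0.000251) and in DNMT3ABKO cells (-0.66, adjusted p = 1.25e-05). Between the lines, 0 of the 12 were called by limma at 0 h (1 at an unadjusted p under 0.05) and at 72 h (2), and 3 at 144 h, all lower in DNMT3ABKO cells (Lin28a, Ehmt2 and Chaf1b), against 26.5% of all genes called. Of the 3 genes listed for promoters bound by Dppa2 and Dppa4, Nkx2-5 was below the filter at 0.179 to 0.780 TPM. Syce1, of the synaptonemal complex, rose in both lines, from 4.73 and 5.87 TPM to 11.5 and 11.7 TPM at 144 h in KH and from 14.6 and 14.5 TPM to 27.6 and 31.6 TPM in DNMT3ABKO cells. Mael, of the piRNA pathway, rose in both lines, from 3.76 and 5.0 TPM to 7.71 and 8.01 TPM and from 3.18 and 5.15 TPM to 11.8 and 11.3 TPM.

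**Figure D5:**
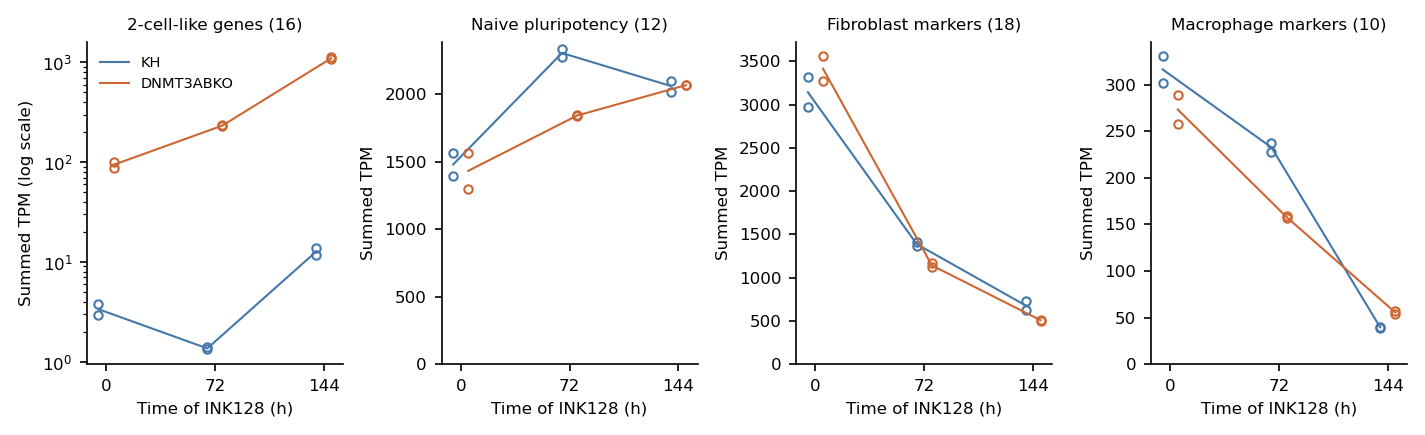
Summed TPM of 4 gene lists against hours of INK128, with circles for libraries and lines through the means of 2, on a log axis for the 2-cell-like genes and on linear axes from 0 for the others. The 2-cell-like sum stays at or below 13.7 TPM in KH and reaches 1073 to 1130 TPM in DNMT3ABKO cells, while fibroblast and macrophage markers fall in both lines.

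Genes of DNA methylation were examined beside Dppa3. Uhrf1 was measured at 211 and 224 TPM at 0 h and at 218 and 216 TPM at 144 h in KH cells, and at 242 and 269 TPM and 226 and 228 TPM in DNMT3ABKO cells. Uhrf1 was not called in KH cells, with log2 differences of 0.04 at 72 h (adjusted p = 0.61) and -0.00 at 144 h (adjusted p = 0.967). In DNMT3ABKO cells it was not called at 72 h (-0.05, adjusted p = 0.561) and fell at 144 h (-0.17, adjusted p = 0.0433). Dnmt1, the maintenance methyltransferase, rose in KH cells by 0.33 at 72 h (adjusted p = 0.00117) and 0.35 at 144 h (adjusted p = 0.000637), and was not called in DNMT3ABKO cells (0.12, adjusted p = 0.112, and 0.09, adjusted p = 0.211). Of the 9 genes of this list, 4 rose and 1 fell in KH cells at 72 h, where 28.3% of all genes rose and 19.5% fell. In DNMT3ABKO cells 4 rose and 0 fell by limma (0 of the 9 fell at an unadjusted p under 0.05), where 34.3% of all genes rose and 21.6% fell. The demethylase genes Tet1 and Tet2 and the cofactor Dnmt3l led the rises at 72 h in both lines, with Dnmt3l at 442 and 429 TPM in KH and 662 and 658 TPM in DNMT3ABKO cells. Dnmt3b fell in KH cells at both times, by 0.53 and by 0.82. Dnmt3a and Dnmt3b are the knocked-out genes, and Dnmt3a differed between the KH libraries at 144 h, at 76.3 and 144 TPM.

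Dppa3 shares its neighbourhood on chromosome 6 with Gdf3, a TGF-beta family ligand, and Nanog, a core pluripotency factor. Neither followed it down in KH cells. Gdf3 rose there at 72 h (0.59, adjusted p = 0.00184) and 144 h (0.57, adjusted p = 0.00171), and in DNMT3ABKO cells it rose at 72 h (0.38, adjusted p = 0.0138) and was not called at 144 h (0.23, adjusted p = 0.0956). Nanog rose in KH cells at 72 h (0.45, adjusted p = 0.0083) and 144 h (0.30, adjusted p = 0.0477). In DNMT3ABKO cells it fell at 72 h (-0.49, adjusted p = 0.00422) and was not called at 144 h (-0.03, adjusted p = 0.855), and its line difference in the 72 h response was -0.95 (adjusted p = 0.00856). Other genes within 100 kb, namely Apobec1, an RNA-editing deaminase, and Mfap5, a matrix protein, fell at both times in both lines. Slc2a3, a glucose transporter, rose at 144 h in both lines, by 0.74 and 0.85. At 72 h it was not called in KH (0.05, adjusted p = 0.677) and fell in DNMT3ABKO cells (-0.26, adjusted p = 0.0271), where it was lower than in KH cells (-0.57, adjusted p = 0.00146). Near Dppa5a, Ddx43, an RNA helicase, rose in all 4 contrasts by 1.00 to 1.32, and Mto1, a mitochondrial tRNA modifier, by 0.25 to 0.33. The pseudogene Dppa5c rose in KH cells (0.54, adjusted p = 0.0226, and 0.65, adjusted p = 0.0083) and was not called in DNMT3ABKO cells (0.27 and 0.30), with the uncertainty of a near-identical copy. Ooep, an oocyte gene with a KH-like domain as in Dppa5a, rose in KH cells by 0.63 and 0.52 and was not called in DNMT3ABKO cells (-0.02 and 0.08), with an interaction of -0.65 at 72 h (adjusted p = 0.00275) and -0.44 at 144 h (adjusted p = 0.0126). The only tested gene near Dppa2 and Dppa4 other than the pair itself was the pseudogene Gm7204, which was not called in these contrasts.

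Within the wider families, Khdc3, which belongs to both the KH-domain and the ECAT (ES cell associated transcript) lists, fell in both lines by 0.60 to 0.94. Khdc1a, Khdc1b and Khdc1c were at or below 0.123 TPM and were not tested. Of the 9 ECAT genes, 5 rose and 2 fell in KH cells at 72 h, and 4 rose and 3 fell in DNMT3ABKO cells, so 7 were called in each line beside 47.8% and 56% of all genes. Of 12 naive pluripotency genes, all rose in KH cells at 72 h, beside 28.3% of all genes (median log2 difference 0.57, against 0.08 over all genes). In DNMT3ABKO cells 8 rose and 1, Nanog, fell, beside 34.3% and 21.6% of all genes. At 144 h 9 rose in KH and 7 in DNMT3ABKO cells, beside 27.4% and 31.4% of all genes, and none was called lower. Nr0b1 rose most in KH cells at 72 h (1.26, adjusted p = 5.08e-07) and Klf4 by 1.13 (adjusted p = 8.1e-05). On the TPM scale, the direction of Dppa2, Dppa4 and Dppa5a was that of the naive genes in KH cells, and that of Dppa3 was opposite. The naive genes were not rescaled to Pou5f1, Sox2 and Sall4.

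As a description over the 12 libraries, which share treatment and line and so are not independent, the level of Dppa3 correlated with that of the other members at Pearson r of -0.96 (Dppa4), -0.92 (Dppa2) and -0.87 (Dppa5a) on the log2 scale, and Dppa2 with Dppa4 at 0.91. Among the tested genes most like Dppa3 were Txndc15 (r = 0.993), Ralb, a small GTPase (0.987), Tipin, of the replication fork (0.986) and Gdpd1 (0.985). Among those most like Dppa2 were AC167192.1 (0.982), Majin, of the meiotic telomere (0.981), Ell2, an elongation factor (0.981) and Tbc1d23 (0.981). Most like Dppa4 were Ppm1j (0.993), Trim41 (0.990), Tfcp2 (0.987), Robo4 (0.986) and Cep89 (0.984). Most like Dppa5a were Igsf21 (0.990), Ensa (0.989), Porcn, which acylates Wnt proteins (0.983), Gprasp1 (0.982) and Slc4a3 (0.981). No gene stood on more than 1 of these lists.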

How the data were processed

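RNA spiked with ERCC and depleted of ribosomal RNA (KAPA RiboErase) was sequenced. The submitters' processing notes name cutadapt 2.4, STAR 2.7.3a, StringTie 2.0 and mm10. The authors deposited TPM per gene, 1 file per library, with no row for the spike-ins, so values are relative shares and the depth is unknown. Repeated identifiers (9 to 16 rows a file) were summed, and 54409 of 54446 matched GENCODE M21.

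Values were analysed as log2(TPM + 1), which understates fold changes of low genes. Genes averaging 1 TPM or more were fitted with limma 3.58.1 (R 4.3.3, lmFit and eBayes with trend), 1 coefficient per group, in 12 contrasts. Calls required a Benjamini-Hochberg adjusted p below 0.05 over all 15727 genes. TPM are not counts, so no count test was run. Line labels were also permuted exactly within time points. An exact permutation test of 2 against 2 libraries alone cannot go below p = 0.333. Scripts were tested on simulated data, in Python 3.11.15 with pandas 2.3.3, NumPy 2.4.6 and matplotlib 3.10.9. Sequences of GENCODE M21 transcripts were aligned with Biopython 1.88. Alternatives changed the pseudocount, filter, scaling, groups fitted, replicate block and libraries.

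The members and lists (2-cell-like genes, other Dux regulators, promoters bound by Dppa2 and Dppa4, DNA methylation factors, ECAT genes, KH-domain family, naive pluripotency, ES cell, fibroblast and macrophage markers) were chosen with earlier results of these data known. Up to 4 called genes a list are named, mostly from those with large changes. The order of size was not strictly kept, so some larger called changes go unnamed. Duxf3, Uhrf1, Dnmt1, Nanog and Gdf3 are always given. Neighbours are the tested genes within 100 kb. Genes most alike are the 5 with the highest r, leaving out predicted, Rik and small RNA genes, and 2 of them are not reported here. Promoters and proteins were not analysed here.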

Additional observations from a re-analysis of the deposited data

Results flagged for a closer look

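The fall of Dppa3 differed between the lines, by the test of the difference itself. The 72 h response of DNMT3ABKO cells lay -1.33 on the log2 scale from that of KH cells (limma adjusted p = 0.000985), and all 4 treated libraries of each line lay below both of its 0 h libraries. The 144 h responses differed by -0.64 (adjusted p = 0.0241), a call that was lost in 5 of 8 fits with a library left out. The responses share the untreated libraries of each line, so these 2 values are not independent. Groups of 2 libraries were too small to look for single outlying samples.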

How the results depend on the processing

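Directions of change from 0 h were the same under all alternatives, and a pseudocount of 0.1 TPM changed no call of the 4 members. The other alternatives changed these calls (log2 differences, with limma adjusted p in brackets). Without a filter on low values, Dppa4 was called for the line difference in the 144 h response (0.27 [0.0465]), which made 2 members. Scaling by the median ratio called Dppa3 and Dppa5a between 72 and 144 h in DNMT3ABKO cells (0.33 [0.0248] and 0.25 [0.0426], 2 members) and turned Dppa4 there to 0.013, called Dppa2 between lines at 72 h (0.52 [0.015]), lost Dppa4 there (0.23 [0.0514]), and turned Dppa5a between lines at 144 h to 0.019 and on average to 0.039. Scaling to Pou5f1, Sox2 and Sall4 lost Dppa5a in KH at 72 h (0.16), in DNMT3ABKO at 72 h (0.11) and at 144 h (0.16), and Dppa2 and Dppa4 in KH at 144 h (0.24 and 0.038), where 2 members were left. It called Dppa2 between lines at 72 h (0.68 [0.005]) and turned Dppa2 between 72 and 144 h in DNMT3ABKO to -0.0058. It also turned the line differences of Dppa5a to 0.14 at 72 h, 0.063 at 144 h and 0.13 on average, the last one called (0.0295). A fit of only the groups compared called Dppa4 (-0.14 [0.0354]) and Dppa5a (0.15 [0.0275]) between 72 and 144 h in KH (3 members), Dppa5a in DNMT3ABKO (0.17 [0.0205], 1 member) and Dppa2 between lines at 72 h (0.49 [0.00303]). The cause of these shifts was not tested. The share of all genes called under each alternative is not given beside these member counts. A gained or lost call is therefore not read as a result about the members.

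When replicate number entered as a block, separately per line or, in a fit added after seeing the data, across both lines, Dppa4 was lost between lines at 72 h (0.20 [0.0891] and 0.20 [0.0522], leaving 1 member). The other 47 of 48 results of a member in a contrast kept their side of the threshold in both fits. Deviations of same-numbered libraries correlated at -0.10 to 0.10 within a line and at -0.06 to 0.34 between lines, the highest between the 0 h groups, so not every pair shared a deviation, and the sources do not say that the number marks a shared run.

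With 1 library left out, results that changed ranged as follows, and a library left alone in its group was assumed to vary like the others. Dppa2 ranged from 0.58 to 0.76 in KH at 144 h against 0 h, from -0.11 to 0.56 between lines at 0 h and from 0.67 to 0.74 at 144 h, and its line difference in response between -0.072 and 0.59 for 72 h and between 0.15 and 0.81 for 144 h. Dppa3 ranged from -0.55 to -0.31 in KH from 72 to 144 h, and its line difference in the 144 h response from -0.76 to -0.53. Dppa4 ranged between -0.044 and 0.047 for the lines at 0 h, between 0.17 and 0.22 at 72 h and between 0.24 and 0.30 at 144 h, and its line difference in the 144 h response from 0.22 to 0.31, called without DNMT3ABKO replicate 1 or 2 at 0 h (0.0212 and 0.0496). Dppa5a ranged from -0.025 to 0.0037 for the average line difference. The ratio of Dppa4 to Dppa2 ranged from -0.44 to -0.19. Which members were called also changed between these fits. The share of all genes called in the same fits is not given here, so these changes are not read as a result about the members.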
